A study of Mus musculus with 12 samples.

Results

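The Cd200 receptors and their paired-receptor relatives were represented by 7 genes, Cd200r1, Cd200r3, Cd200r4, Lilr4b, Pirb, Clec12a and Clec5a, among 19937 genes measured on 12 arrays. They were taken as the probe sets whose only gene symbol is one of these names, and each gene had such a probe set. The genes were picked because Cd200r4 and Lilr4b were higher, and Clec12a lower, in knockout cells. The comparison of knockout with wild type therefore chose them, and its values for these 7 genes are given as a description, with no test. The comparison of wild-type stem and progenitor fractions with each other was not used in the choice, and it was tested.

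Paired receptors are families of closely related cell surface proteins on myeloid cells in which some members inhibit and others activate. Inhibitory members carry tyrosine motifs in their tails that recruit phosphatases or docking proteins. Activating members have short tails and signal through the adaptors Tyrobp (DAP12), Hcst (DAP10) or Fcer1g, which couple them to the kinase Syk or to lipid kinases. The common name of inhibitory receptors covers only part of the 7 genes. Cd200r1, Pirb and Clec12a encode inhibitory receptors, Cd200r3, Cd200r4 and Clec5a encode activating ones, and Lilr4b (gp49A) encodes a protein whose tail lacks the inhibitory motifs of its neighbour Lilrb4a (gp49B).

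Cells came from bone marrow of 3 C57BL/6J Mx-Cre mice with Lamtor2 f/f alleles (KO) and 3 Mx-Cre mice with Lamtor2 wt/wt alleles (WT). Lamtor2 is a subunit of Ragulator, the scaffold on late endosomes and lysosomes that takes part in mTORC1 and ERK signalling. All mice, WT included, carried Mx-Cre (the strain label writes Mx1-Cre wt/wt for both genotypes) and received pIpC by intraperitoneal injection, and cells were sorted at day 14. Mx-Cre is driven by an interferon-responsive promoter that is not specific to blood cells, and pIpC itself induces interferon. LSK cells (Lin- Sca1+ c-Kit+) hold stem cells and multipotent progenitors, and GMP, sorted as Lin- Sca1- c-Kit+ CD34+ FcγR+, are granulocyte and macrophage progenitors. The 4 groups (KO and WT of LSK, KO and WT of GMP) had 3 arrays each. Ages and sexes of the mice are not given in the labels, nor which LSK and GMP samples share a mouse.

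Lamtor2 read 4.95 to 5.77 on the 6 KO arrays and 10.31 to 10.82 on the 6 WT arrays (RMA values, log2), as the labels require. Array medians lay between 5.96 and 6.18. All 8 measured LSK markers were higher in WT LSK than in WT GMP (limma, adjusted p under 0.05 for each). Of 10 GMP markers, 7 were lower and 2 higher by the same test. Those 2, Kit and Cd34, are on both lists. Of all genes, 10.3% were higher and 9.32% lower in WT LSK. The first GMP KO replicate differed most from the rest of its group, correlating with the other GMP KO arrays at a mean of 0.979, against 0.985 to 0.996 for the other 11 arrays with theirs. In such bulk samples, fewer cells of a type and less RNA per cell cannot be told apart.

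The promoter windows of 6 of the 7 genes were found in RefSeq's table for mouse assembly GRCm38.p6, each with 250 bases before the annotated start and 50 from it on. Cd200r4 and Cd200r3 are shown because they are neighbours of related sequence whose readings differed widely, and Lilr4b and Clec12a because the choice of genes rested on them. Letters run 5′ to 3′ along the gene's strand. Capitals mark matches, on either strand, to any of 5 motifs of myeloid or lysosomal regulators: GAGGAA (core of PU.1 sites), TTNCNNAA (C/EBP), TGTGGT (RUNX), TGANTCA (AP-1) and CACGTG (MiT/TFE factors), with overlapping matches run together.
Cd200r4 (chr16:44820478-44820777, strand +): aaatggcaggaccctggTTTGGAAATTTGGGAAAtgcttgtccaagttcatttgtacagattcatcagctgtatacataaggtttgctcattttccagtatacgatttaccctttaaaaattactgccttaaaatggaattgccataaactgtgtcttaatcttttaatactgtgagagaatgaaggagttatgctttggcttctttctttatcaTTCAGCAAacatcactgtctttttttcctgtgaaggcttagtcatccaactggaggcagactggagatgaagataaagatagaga
Cd200r3 (chr16:44943428-44943727, strand +): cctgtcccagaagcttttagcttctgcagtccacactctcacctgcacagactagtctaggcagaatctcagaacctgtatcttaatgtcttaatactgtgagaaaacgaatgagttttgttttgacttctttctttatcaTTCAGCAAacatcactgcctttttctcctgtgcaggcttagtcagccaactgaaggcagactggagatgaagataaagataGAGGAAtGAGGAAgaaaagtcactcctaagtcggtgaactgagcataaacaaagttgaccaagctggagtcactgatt
Lilr4b (chr10:51480362-51480661, strand +): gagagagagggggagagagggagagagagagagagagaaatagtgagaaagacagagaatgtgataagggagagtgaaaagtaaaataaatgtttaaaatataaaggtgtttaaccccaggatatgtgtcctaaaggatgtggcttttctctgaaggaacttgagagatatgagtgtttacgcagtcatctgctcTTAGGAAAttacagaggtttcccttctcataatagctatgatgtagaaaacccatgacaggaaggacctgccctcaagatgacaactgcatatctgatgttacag
Clec12a (chr6:129349994-129350293, strand +): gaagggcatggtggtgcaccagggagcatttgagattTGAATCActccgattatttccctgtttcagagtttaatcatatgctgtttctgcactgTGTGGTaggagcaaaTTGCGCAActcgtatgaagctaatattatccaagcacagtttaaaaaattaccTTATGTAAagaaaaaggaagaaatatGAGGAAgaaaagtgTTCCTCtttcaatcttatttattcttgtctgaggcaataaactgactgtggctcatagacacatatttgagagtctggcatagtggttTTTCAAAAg

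The windows of Cd200r3 and Cd200r4 agreed at 68.6% of 226 bases when shifted by 74 bases, with a longest shared run of 32 bases. No other pair of the 6 windows was above 38.3%. Both windows hold TTCAGCAA, a match to the C/EBP letters, at 109 bases before the start of Cd200r3 and 35 bases before that of Cd200r4. The Cd200r3 window also holds a pair of GAGGAA matches, 28 and 21 bases before its start. The Clec12a window holds matches to 4 of the 5 motifs, and the Lilr4b window a single match, to C/EBP. Such matches are common: of 32851 promoters of this length, 40.7% hold the C/EBP letters, 28.3% the PU.1 core, 16.8% the RUNX letters, 7.81% the AP-1 letters and 7.15% the MiT/TFE letters. CACGTG occurs in none of the 6 windows, which says only that these letters are not there. The motifs were chosen after the array values were known.

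Across the 4 groups, the 7 genes fell into different patterns. Cd200r4 and Lilr4b were higher on every KO array than on any WT array in both cell types, Pirb and Cd200r1 read higher in KO mainly in GMP, and the lectins Clec12a and Clec5a were marked by their high level in GMP. Differences between arrays of a gene are compared below, but not the levels of different genes, since probe sets differ in brightness. In LSK, the 3 KO arrays lay above the 3 WT arrays for 4 of the 7 genes, below them for 1 and overlapped for 2. In GMP they lay above for 4, below for 2 and overlapped for 1. Over all genes, the arrays of KO and WT did not overlap for 25.5% in LSK (12.4% with KO above and 13.2% below) and 29.6% in GMP (12% above and 17.6% below), and nothing is read from the members' counts, because these contrasts chose them. The median difference of the 7 genes, KO minus WT, was 0.54 in LSK and 1.36 in GMP on the log2 scale, beside -0.01 and 0.01 for all genes.

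**Figure D1:**
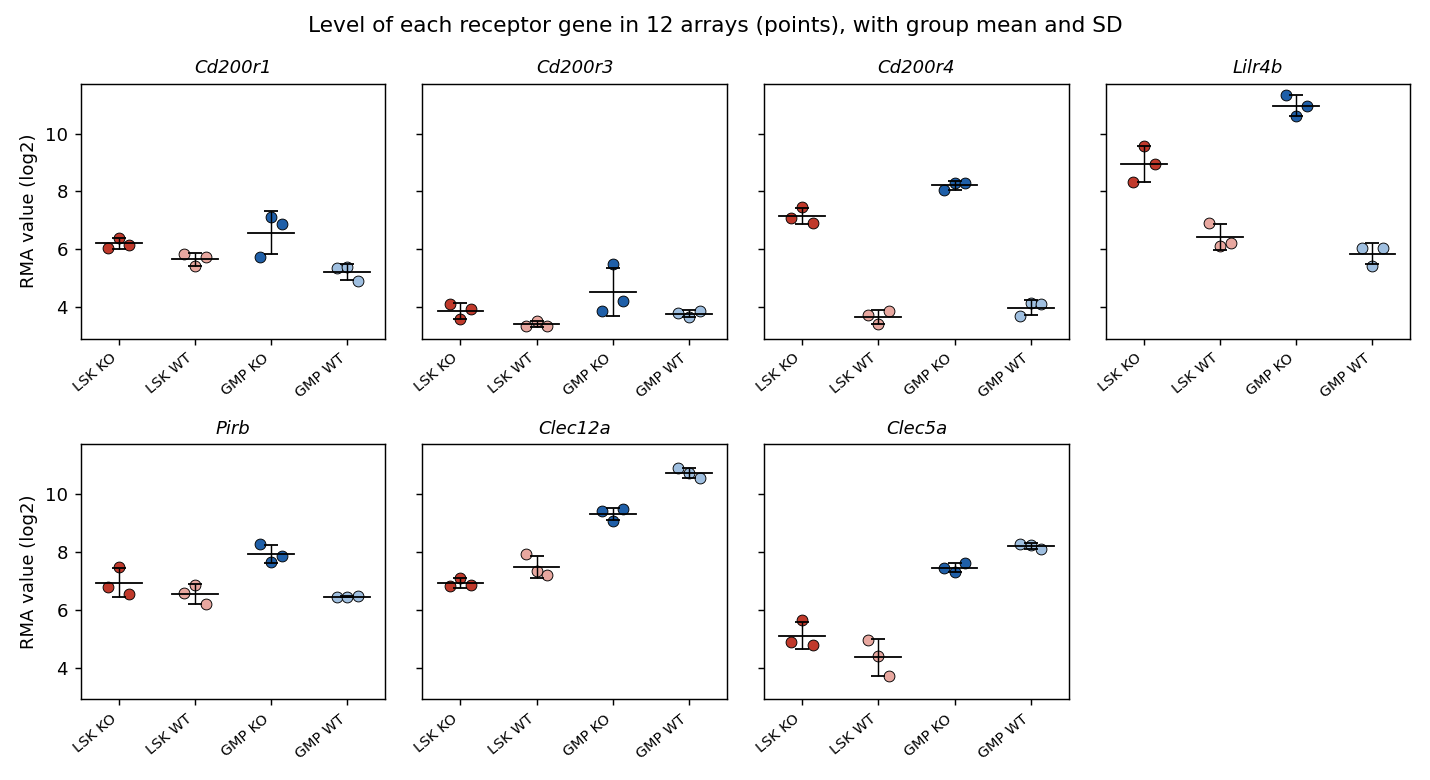
RMA values (log2) of the 7 receptor genes on each of 12 arrays (points), with the group mean (bar) and SD (whisker), for KO and WT in LSK and then in GMP. Cd200r4 reads 6.90 to 8.30 on the KO arrays and 3.39 to 4.13 on the WT arrays, whereas Clec12a and Clec5a separate GMP from LSK. Levels of different genes are not comparable.

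Cd200r1 is the receptor for Cd200, a surface protein of many cell types, and inhibits myeloid cells through Dok2, Dok1 and RasGAP. It read 6.05, 6.39 and 6.14 on the LSK KO arrays, against 5.83, 5.40 and 5.73 on the LSK WT arrays. The GMP KO arrays gave 5.72, 7.11 and 6.87, and the GMP WT arrays gave 5.33, 5.38 and 4.89. All KO arrays lay above all WT arrays within each cell type, and GMP KO replicate 1 was the lowest of its group by more than 1 unit. The difference, KO minus WT, was 0.54 (SE 0.28) in LSK and 1.36 (SE 0.28) in GMP, where KO was 2.57-fold higher. Without GMP KO replicate 1 the GMP difference was 1.79, and without GMP KO replicate 2 it was 1.09. The order of group means was GMP KO (6.57 ± 0.74), LSK KO (6.19 ± 0.18), LSK WT (5.65 ± 0.22) and GMP WT (5.20 ± 0.27; SD, n = 3 each), and only the arrays of the KO groups overlapped as neighbours in this order.

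Cd200r4 encodes an activating relative of Cd200r1 that pairs with Tyrobp. It read 7.07, 7.46 and 6.90 on the LSK KO arrays, against 3.73, 3.39 and 3.86 on the LSK WT arrays. On the GMP arrays it read 8.04, 8.29 and 8.30 in KO and 3.69, 4.13 and 4.10 in WT. The 6 WT arrays fall in a narrow low band, none above 4.13, and no KO array is below 6.90. The difference was 3.48 (SE 0.17), an 11.2-fold higher value in LSK KO, and 4.24 (SE 0.17), an 18.8-fold higher value in GMP KO. The table holds no detection calls, so whether the WT arrays measured any transcript is not known, and folds from so low a reading may be too small. GMP KO (8.21 ± 0.15) lay above LSK KO (7.14 ± 0.29), with no overlap, whereas GMP WT (3.98 ± 0.24) and LSK WT (3.66 ± 0.24; SD, n = 3 each) overlapped.

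Cd200r3, a further activating relative known from mast cells and basophils, read low in most arrays. It gave 4.08, 3.56 and 3.92 on the LSK KO arrays and 3.34, 3.52 and 3.35 on the LSK WT arrays. In GMP it gave 3.87, 5.47 and 4.19 on the KO arrays and 3.80, 3.63 and 3.87 on the WT arrays. GMP KO replicate 2 was the only array above 4.2, and the GMP groups overlapped, since GMP KO replicate 1 and GMP WT replicate 3 read alike. The difference was 0.45 (SE 0.30) in LSK and 0.74 (SE 0.30) in GMP, and 0.26 in GMP without GMP KO replicate 2. The same array had the highest mean of 10 basophil and mast cell markers, 8.86, against 7.72 and 7.86 on the other GMP KO arrays, and the part of such cells in the reading was not tested. Of neighbours in the order of means, GMP KO (4.51 ± 0.85), LSK KO (3.85 ± 0.26), GMP WT (3.77 ± 0.13) and LSK WT (3.40 ± 0.10; SD, n = 3 each), only the WT groups did not overlap.

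Lilr4b (gp49A) belongs to the leukocyte immunoglobulin-like receptors. It read 8.31, 9.58 and 8.95 on the LSK KO arrays, against 6.92, 6.12 and 6.20 on the LSK WT arrays. Readings in GMP were 11.33, 10.62 and 10.96 on the KO arrays and 6.05, 5.43 and 6.05 on the WT arrays. The groups were far apart in both cell types, and GMP KO stood above LSK KO on every array. The difference was 2.53 (SE 0.30), 5.79-fold, in LSK and 5.13 (SE 0.30), 34.9-fold, in GMP. The order of means was GMP KO (10.97 ± 0.36), LSK KO (8.95 ± 0.64), LSK WT (6.41 ± 0.44) and GMP WT (5.84 ± 0.36; SD, n = 3 each), with no overlap between neighbours.

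Lilrb4a (gp49B), the inhibitory gene next to Lilr4b, which binds the integrin αvβ3, has a near-identical sequence, so probes of either gene may also read the other and the split between them is uncertain. Its own probe set read 7.40, 8.61 and 7.68 on the LSK KO arrays, against 5.86, 4.98 and 5.46 on the LSK WT arrays. Its GMP readings were 9.98, 9.22 and 9.72 in KO and 6.15, 4.99 and 5.11 in WT. For both genes LSK KO replicate 2 was the highest and GMP KO replicate 2 the lowest of its group, and KO and WT arrays did not overlap. Lilrb4a rose by 2.46 (SE 0.35, limma adjusted p = 0.00117) in LSK KO and by 4.22 (SE 0.35, adjusted p = 5.87e-06) in GMP KO. It was not named in the choice of genes, but its probes may also read Lilr4b, which was. These p-values are therefore not independent of the choice.

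Pirb is an inhibitory receptor for MHC class I molecules that recruits the phosphatases Ptpn6 (SHP-1) and Ptpn11 (SHP-2), and its activating partners are the Pira genes. It read 6.78, 7.50 and 6.55 on the LSK KO arrays and 6.58, 6.86 and 6.20 on the LSK WT arrays, so the groups overlapped. In GMP it read 8.28, 7.64 and 7.88 in KO, against 6.45, 6.43 and 6.47 in WT, with every KO array above a very tight WT group. The difference was 0.40 (SE 0.23) in LSK and 1.48 (SE 0.23), 2.79-fold, in GMP. In LSK it came to 0.12 when LSK KO replicate 2 was omitted, and to 0.23 when LSK WT replicate 3 was. The order of means was GMP KO (7.93 ± 0.32), LSK KO (6.94 ± 0.50), LSK WT (6.55 ± 0.33) and GMP WT (6.45 ± 0.02; SD, n = 3 each), and only GMP KO did not overlap its neighbour.

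The Pir genes share sequence, and 2 further probe sets carry the symbols of Pirb and several Pira genes together, so they cannot be assigned to one. The first of these read 7.77, 8.44 and 7.86 in LSK KO, 7.60, 7.59 and 7.51 in LSK WT, 9.44, 8.55 and 9.10 in GMP KO, and 7.74, 7.43 and 7.94 in GMP WT. The second read 6.29, 7.57 and 6.66 in LSK KO, 5.96, 5.93 and 5.46 in LSK WT, 9.41, 8.0 and 8.51 in GMP KO, and 6.20, 5.58 and 5.53 in GMP WT. On both, all KO arrays lay above all WT arrays in each cell type, with GMP KO the highest group. Lilra6, whose symbol is also on both sets, has a probe set of its own. Its values there, KO minus WT, were 0.19 in LSK (limma adjusted p = 0.833) and -0.03 in GMP (adjusted p = 0.964). Which of these genes the shared sets read is not known.

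Clec12a is an inhibitory C-type lectin of granulocytes, monocytes and dendritic cells. It read 6.81, 7.11 and 6.85 on the LSK KO arrays, against 7.92, 7.33 and 7.21 on the LSK WT arrays. Readings in GMP were 9.42, 9.09 and 9.48 on the KO arrays and 10.91, 10.73 and 10.57 on the WT arrays. KO arrays lay below WT arrays without overlap in both cell types, narrowly so in LSK, where the highest KO array read 7.11 and the lowest WT array 7.21. The difference, KO minus WT, was -0.57 (SE 0.17) in LSK and -1.41 (SE 0.17) in GMP, a 2.65-fold lower value in GMP KO. The LSK value was -0.35 without LSK WT replicate 1. The 4 groups did not overlap in the order GMP WT (10.74 ± 0.17), GMP KO (9.33 ± 0.21), LSK WT (7.49 ± 0.38) and LSK KO (6.92 ± 0.17; SD, n = 3 each).

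Clec5a (MDL-1) is an activating C-type lectin of monocytes, macrophages and neutrophils that signals through Tyrobp and Hcst. It read 4.89, 5.64 and 4.77 on the LSK KO arrays and 4.97, 4.40 and 3.70 on the LSK WT arrays, which overlapped. In GMP it read 7.46, 7.32 and 7.61 on the KO arrays, all below the 8.27, 8.25 and 8.10 of the WT arrays. The differences had opposite signs, 0.75 (SE 0.27) in LSK and -0.74 (SE 0.27) in GMP. Leaving out LSK KO replicate 2 gave 0.48 in LSK, and leaving out LSK WT replicate 3 gave 0.42. GMP WT (8.20 ± 0.09) and GMP KO (7.46 ± 0.15) lay above LSK KO (5.10 ± 0.47) and LSK WT (4.35 ± 0.64; SD, n = 3 each).

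**Figure D2:**
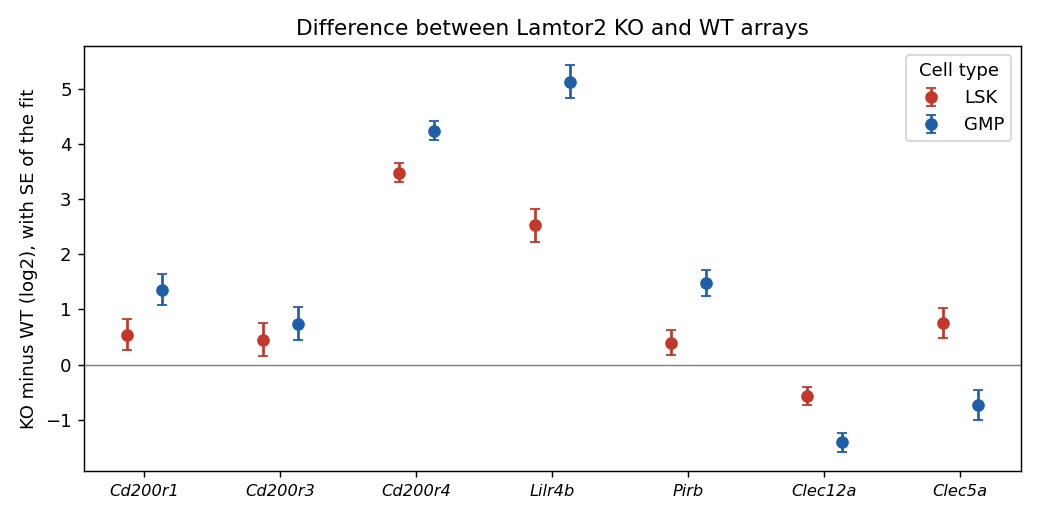
Difference between Lamtor2 KO and WT arrays (log2, mean of 3 minus mean of 3) for each receptor gene in LSK and in GMP, with the SE of the limma fit. Lilr4b (5.13) and Cd200r4 (4.24) have the highest values in GMP, Clec12a is negative in both cell types, and Clec5a changes sign between them.

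The size of the KO difference also varied between cell types, and is again described without a test. Taken as the LSK difference minus the GMP difference, it was -2.59 (SE 0.43) for Lilr4b, -1.08 (SE 0.32) for Pirb, -0.83 (SE 0.39) for Cd200r1, -0.75 (SE 0.24) for Cd200r4 and -0.29 (SE 0.42) for Cd200r3, so the KO difference was larger in GMP. For Cd200r3 this direction rests on GMP KO replicate 2, without which the value was 0.19. For Cd200r1 it was -1.25 without GMP KO replicate 1 and -0.55 without GMP KO replicate 2. It was 0.84 (SE 0.25) for Clec12a, whose difference was more negative in GMP, and 1.49 (SE 0.38) for Clec5a. Between the KO groups, the LSK arrays lay below the GMP arrays for 5 of the 7 genes and overlapped for Cd200r1 and Cd200r3, beside 31.5% of all genes that did not overlap in either direction and 15.2% that lay lower in LSK. The values, KO LSK minus KO GMP, were -1.07 for Cd200r4, -2.02 for Lilr4b, -0.99 for Pirb, -2.41 for Clec12a and -2.36 for Clec5a.

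The comparison of WT LSK with WT GMP asks how the receptors differ between the stem and multipotent fraction and the committed myeloid one where Lamtor2 is intact. The lectins Clec12a and Clec5a were far lower in LSK than in GMP. Clec12a averaged 7.49 ± 0.38 in LSK WT and 10.74 ± 0.17 in GMP WT (SD, n = 3 each), a difference of -3.25 (SE 0.17), 9.50-fold (limma adjusted p = 7.09e-08). Clec5a averaged 4.35 ± 0.64 in LSK WT and 8.20 ± 0.09 in GMP WT (SD, n = 3 each), a difference of -3.85 (SE 0.27), 14.4-fold (limma adjusted p = 5.07e-07). The other 5 genes did not pass the threshold of 0.05 after Benjamini-Hochberg adjustment over all genes. Their differences were 0.57 for Lilr4b (SE 0.30, adjusted p = 0.246), 0.45 for Cd200r1 (SE 0.28, adjusted p = 0.325), 0.09 for Pirb (SE 0.23, adjusted p = 0.848), -0.32 for Cd200r4 (SE 0.17, adjusted p = 0.243) and -0.37 for Cd200r3 (SE 0.30, adjusted p = 0.480). Thus 0 of 7 genes were higher and 2 lower in WT LSK, beside 19.6% of all genes that passed, 10.3% higher and 9.32% lower. In a fit of these 2 groups alone 4 genes passed, with Cd200r1 (adjusted p = 0.044) and Cd200r3 (adjusted p = 0.0155) added.

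The patterns of the 7 genes were compared by the root mean square difference of 2 genes over the 12 arrays, after each gene was centred on its own mean. Of the 21 pairs, 5 lay between 0.50 and 0.62 and the rest between 1.5 and 2.78. The close pairs were Cd200r1 with Cd200r3 (0.50), Cd200r1 with Pirb (0.57), Clec12a with Clec5a (0.57), Cd200r4 with Lilr4b (0.61) and Cd200r3 with Pirb (0.62). Genes that vary little are close by this measure for that reason alone.

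Among all genes, those with the pattern most like Cd200r4 were the lysosomal protease Lgmn (0.46), the prostaglandin D synthase Hpgds (0.49) and the complement receptor C3ar1 (0.58). Lilr4b was most like Lgmn (0.34), the transcription factor Bhlhe41 (0.39) and Lilrb4a (0.41). Lgmn, with differences of 2.65 in LSK and 5.04 in GMP, thus headed both lists. Pirb was closest to the transporter Slc37a2 (0.22), Lrp12 (0.22) and the complement component C1qa (0.23), and Cd200r1 to the kinase Camk1 (0.21), the lipid exporter Abca1 (0.24) and Plxnb2 (0.25). Clec12a was most like Tifab (0.25), Mefv (0.39) and Sgms2 (0.39), and Clec5a was most like Anxa3 (0.29), Igsf6 (0.33) and Trem3 (0.37). Cd200r3, whose range was small, was closest to Abca8b (0.17), Alox15 (0.23) and the histamine receptor Hrh4 (0.23). Each value covers 12 arrays that share 4 group means.

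Genes that work with these receptors, or belong to the same families, numbered 97 on lists, of which 84 were measured. The lists came from general knowledge, but were drawn up with earlier results of these data known. They hold close relatives of the chosen genes, such as Lilrb4a and Cd200r2, so the shares below are no independent test. In LSK KO 22 rose and 3 fell, 29.8% of those measured, beside 4.44% of all genes (2.49% up and 1.96% down). In GMP KO 24 rose and 10 fell, 40.5%, beside 16.1% of all genes (5.78% up and 10.3% down). The median difference of the 84 genes was 0.23 in LSK and 0.03 in GMP. Adjusted p-values below are from limma over all 19937 genes.

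Of 10 measured adaptors and kinases of the activating receptors, Tyrobp, Fcer1g and Lat2 rose in both LSK KO and GMP KO, and the other 7 did not pass in either. Tyrobp, the DAP12 adaptor of Cd200r4 and Clec5a, read 11.34, 11.76 and 11.33 in LSK KO, against 10.42, 10.12 and 10.01 in LSK WT (difference 1.29, SE 0.13, adjusted p = 9.13e-05). In GMP it read 12.33, 12.32 and 12.41 in KO, against 11.69, 11.67 and 11.67 in WT (0.67, SE 0.13, adjusted p = 0.00328). Neither pair of groups overlapped. Fcer1g, the adaptor of the Pira receptors, rose by 1.78 (SE 0.13, adjusted p = 9.71e-06) in LSK KO and by 0.98 (SE 0.13, adjusted p = 2.66e-04) in GMP KO. Lat2, a membrane adaptor downstream of such receptors, rose by 1.39 in LSK KO and 1.23 in GMP KO (adjusted p = 0.00449 and 0.00346). Hcst (DAP10) had values of 0.26 and 0.35 and did not pass.

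Of the 8 phosphatases and docking proteins through which inhibitory receptors act, all measured, 1 fell in each cell type and 0 rose. This is 12.5%, beside 1.96% of all genes that fell in LSK KO and 10.3% in GMP KO. In GMP the share is thus near that of all genes. Dok2, the docking protein of Cd200r1, fell by 0.93 (SE 0.15, adjusted p = 0.00318) in LSK KO, and its value in GMP was -0.33 (adjusted p = 0.173). Ptpn11 (SHP-2) fell by 0.65 (SE 0.10, adjusted p = 8.18e-04) in GMP KO, and its value in LSK was -0.19 (adjusted p = 0.426). Ptpn6 (SHP-1), the other phosphatase of Pirb, had values of 0.12 in LSK and -0.17 in GMP and did not pass. Dok1 (0.07 and 0.43) and Rasa1, which is RasGAP (0.08 and -0.11), did not pass either.

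Ligands were fewer, with 6 of 9 measured. Cd200 itself, named here after its values were seen, read 5.61, 5.99 and 5.88 in LSK KO, against 6.53, 6.64 and 6.18 on the LSK WT arrays. Its GMP readings were 5.22, 5.67 and 6.17 in KO and 4.89, 4.99 and 5.32 in WT. The LSK groups did not overlap and the GMP groups did, and neither difference passed (-0.63, SE 0.21, adjusted p = 0.123 in LSK, and 0.62, SE 0.21, adjusted p = 0.0623 in GMP). Both passed with array weights (adjusted p = 0.0276 in LSK and 0.00421 in GMP) and with a replicate block (0.0389 and 0.0163). The weights gave GMP KO replicate 1 only 0.19. The LSK value also passed in a fit of the 2 LSK groups (0.0272), and the GMP value without GMP KO replicate 1 (0.00672). Neither passed in any other alternative, repeated quantile normalisation and centring on the median included. In WT, Cd200 was higher in LSK than in GMP by 1.38 (adjusted p = 3.04e-04). Apoe, a lipoprotein reported to bind human LILRB4, rose by 1.67 (SE 0.25, adjusted p = 0.00165) in LSK KO and by 3.36 (SE 0.25, adjusted p = 2.40e-06) in GMP KO. Itgb3, the β3 chain of the integrin bound by gp49B, rose by 0.82 (SE 0.13, adjusted p = 0.00214) in LSK KO, and fibronectin (Fn1) fell by 1.11 (SE 0.21, adjusted p = 0.00307) in GMP KO.

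Of 37 measured immunoglobulin-like receptors, 12 rose and 2 fell in LSK KO, and 14 rose and 4 fell in GMP KO. Cd33, a sialic acid-binding receptor, rose by 2.05 (SE 0.20, adjusted p = 7.07e-05) in LSK KO and by 3.92 (SE 0.20, adjusted p = 8.94e-08) in GMP KO. Cd300lf, an inhibitory lipid-binding receptor, rose by 2.07 (SE 0.32) and 3.68 (SE 0.32) in the same order (adjusted p = 0.00246 and 9.65e-06). Havcr2 (Tim-3) rose by 2.69 (SE 0.17) in LSK KO and 1.41 (SE 0.17) in GMP KO (adjusted p = 1.86e-06 and 1.24e-04), and the inhibitory Fc receptor Fcgr2b rose by 1.42 and 0.69 (adjusted p = 7.03e-05 and 0.00381). Siglecg, an inhibitory sialic acid receptor, fell by 0.59 (SE 0.12, adjusted p = 0.0123) in LSK KO and by 0.89 (SE 0.12, adjusted p = 2.66e-04) in GMP KO. Its LSK call ended in 3 of the 6 fits that left out 1 array, namely the second LSK KO array, the second LSK WT array or the third LSK WT array (adjusted p = 0.0528 to 0.0586).

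Cd200r2, a further activating relative beside Cd200r4, was also named after its values were seen. It read 4.16, 4.61 and 3.87 in LSK KO, against 3.47, 3.50 and 3.52 in LSK WT, and 4.55, 6.04 and 5.83 in GMP KO, against 3.42, 3.67 and 3.52 in GMP WT. Every KO array was above the WT arrays, and GMP KO replicate 1 was again the lowest of its group. The rise in GMP passed at 1.93 (SE 0.30, adjusted p = 7.31e-04), and the value in LSK did not at 0.72 (SE 0.30, adjusted p = 0.237). The LSK value passed with array weights (0.0233) and in a fit of the 2 LSK groups (0.0274), but in no other alternative.

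Of 23 C-type lectin receptors, 5 rose and 0 fell in LSK KO (18 did not pass), and 6 rose and 4 fell in GMP KO. Clec7a (Dectin-1), a receptor for fungal glucans, rose by 1.68 (SE 0.31) in LSK KO and 1.41 (SE 0.31) in GMP KO (adjusted p = 0.00677 and 0.00691), and Clec2i rose by 1.30 and 1.03 (adjusted p = 0.00117 and 0.00217). Clec4e (Mincle), which senses mycobacterial glycolipid, rose by 0.80 (SE 0.13, adjusted p = 0.00307) in LSK KO, and its relative Clec4n (Dectin-2) rose by 1.45 (SE 0.29, adjusted p = 0.00401) in GMP KO. Klrb1f fell by 1.63 (SE 0.16, adjusted p = 1.84e-05) in GMP KO. Olr1, a receptor for oxidised lipoprotein, fell by 0.88 (adjusted p = 0.00494) there, Clec9a by 0.68 (adjusted p = 0.00768) and Klrk1 by 0.64 (adjusted p = 0.00690).

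**Figure D3:**
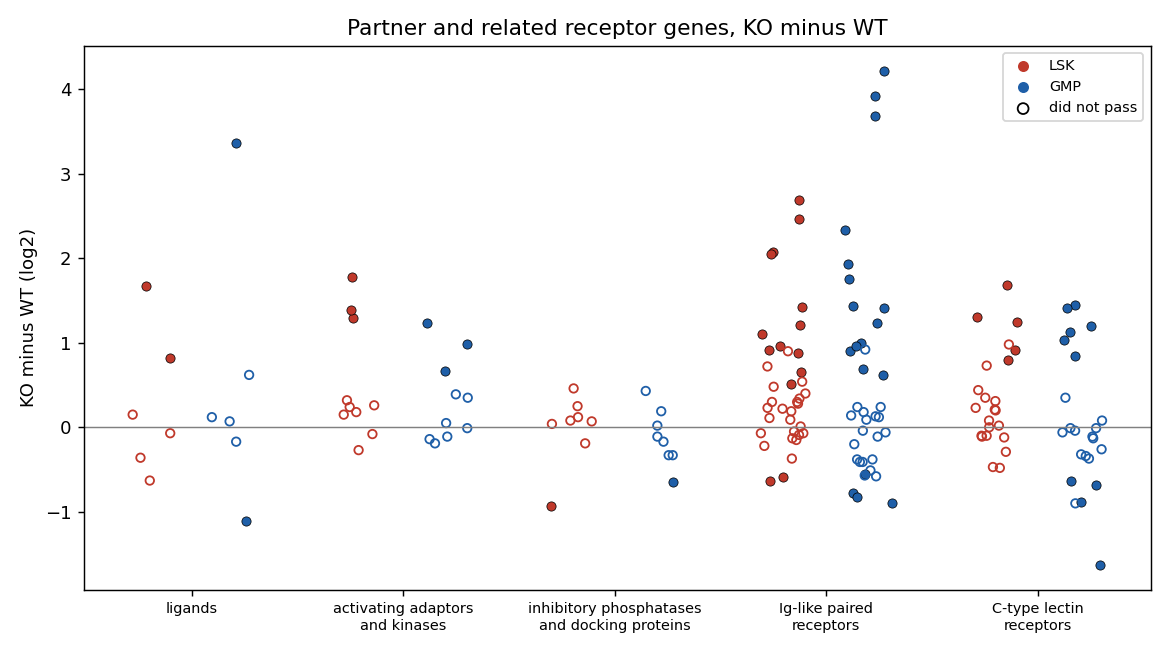
KO minus WT difference (log2) of 84 measured partner and related receptor genes in LSK and GMP, grouped by role. Filled points passed limma's adjusted p of 0.05 over all genes and open points did not. In LSK 22 genes rose and 3 fell, and in GMP 24 rose and 10 fell.

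Several of the 7 genes lie in clusters of related genes. In assembly GRCm38.p6 the order on chromosome 16 is Cd200r1, Cd200r4, Cd200r2 and Cd200r3, with Cd200 further along, whereas Lilr4b lies beside Lilrb4a on chromosome 10, Pirb beside Lilra6 on chromosome 7, and Clec12a and Clec5a apart on chromosome 6. Of 51 measured genes within 5 places of a member, 3 rose and 1 fell in LSK KO, beside 4.44% of all genes that passed, and 3 rose and 4 fell in GMP KO, beside 16.1%. In GMP those that rose were Cd200r2, Lilrb4a and Clec7a, and those that fell were Nepro, Atg3, Clec9a and Mgam, named after their values were seen. The pair next to Clec12a, Clec2m and Clec12b, had values of 0.00 and -0.12 in LSK and 0.04 and 0.08 in GMP and did not pass.

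Some markers of other myeloid cells moved with genotype as well. The mean of 14 measured macrophage markers was 6.20 to 6.86 over the LSK KO arrays, against 5.71 to 5.89 over the LSK WT arrays, and 7.18 to 7.64 in GMP KO, against 6.12 to 6.19 in GMP WT. Of these markers 4 rose and 0 fell in LSK KO, and 6 rose and 0 fell in GMP KO, beside 2.49% and 5.78% of all genes that rose. Cd68, the brightest of the list, rose by 2.27 and 2.87, while Vsig4, the dimmest, had values of -0.11 and 0.03. Csf1r (0.90 and -0.09) and Cd163 (-0.23 and -0.35) did not pass in either cell type. Across the GMP KO arrays the macrophage mean was lowest in replicate 1 (7.18), the array in which Lilr4b (11.33) and Pirb (8.28) were highest and Cd200r4 (8.04), Cd200r1 (5.72) and Cd200r3 (3.87) were lowest. In LSK KO it was highest in replicate 2 (6.86), as were all of the 7 genes but Cd200r3. Other lists varied over the same arrays. The neutrophil mean was highest in LSK KO replicate 2 (8.67, against 7.07 and 7.44) and in GMP KO replicate 1 (9.01, against 7.46 and 7.15). The monocyte mean was highest in LSK KO replicate 2 (7.72) and lowest in GMP KO replicate 1 (8.55).

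The mean of 10 basophil and mast cell markers was 6.99 to 7.75 in LSK KO, against 5.96 to 6.38 in LSK WT. In GMP it was 7.72 to 8.86 in KO, against 6.97 to 7.39 in WT. Of these markers 3 rose in each cell type. For this count and those below, 2.49% of all genes rose and 1.96% fell in LSK KO. In GMP KO 5.78% rose and 10.3% fell. The mean of 8 measured monocyte markers was 7.36 to 7.72 in LSK KO, against 6.38 to 6.98 in LSK WT, but 8.55 to 9.0 in GMP KO, against 9.18 to 9.28 in GMP WT. In GMP KO 1 monocyte marker, Mpeg1, rose by 1.79 and 4 fell, among them Klf4 by 0.80 and Ms4a6c by 0.70. Clec12a and Clec5a were also lower in GMP KO. In LSK KO, where the monocyte mean was higher, Clec12a was lower (-0.57) and Clec5a had a positive value (0.75) with overlapping arrays. The mean of 10 neutrophil markers overlapped between genotypes in both cell types. In GMP KO 1 of them, Ly6g, fell by 1.52 (limma adjusted p = 0.027), a share near that of all genes that fell there. The mean of 9 dendritic cell markers overlapped as well, with 0 risen and 2 fallen in LSK KO, and 1 risen and 2 fallen in GMP KO. Those that fell were H2-Aa (-0.96 in LSK and -1.55 in GMP) and H2-Ab1 (-1.03 and -1.02). The mean of 10 GMP markers was 9.75 to 10.18 in LSK KO, against 8.86 to 9.52 in LSK WT, with 3 markers risen. It overlapped between GMP KO and GMP WT. The mean of 8 measured LSK markers was 8.66 to 8.90 in LSK KO, against 9.11 to 9.21 in LSK WT, with 2 markers fallen. The part of such cells in the receptor values was not tested.

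**Figure D4:**
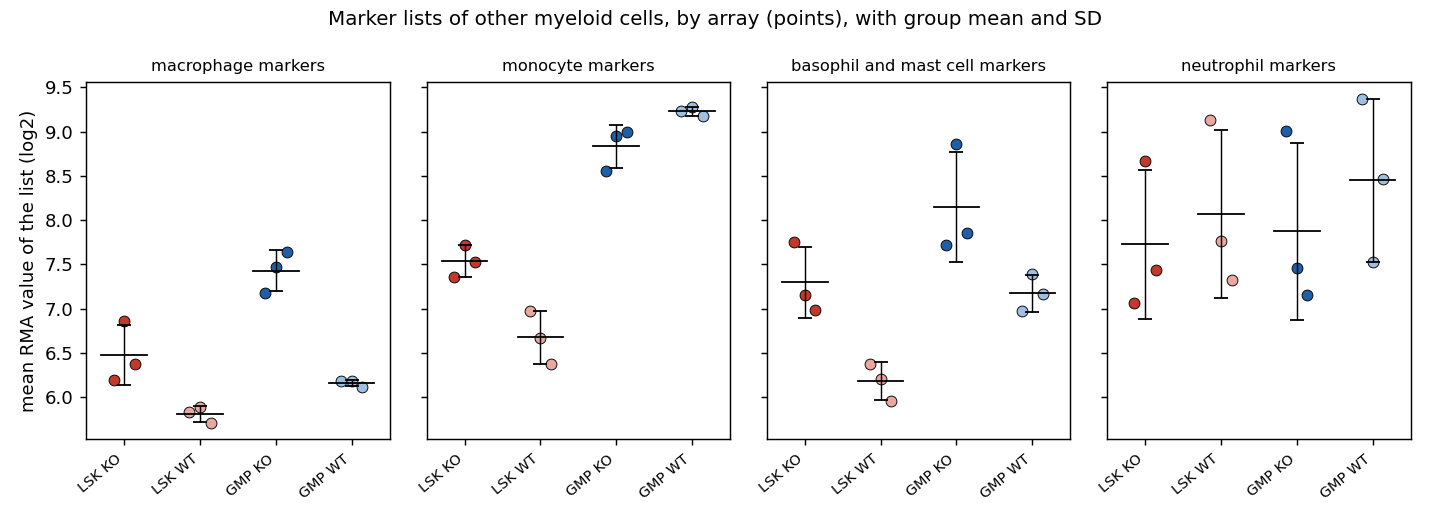
Mean RMA value (log2) of 4 marker lists on each array (points), with group mean (bar) and SD (whisker), for KO and WT in LSK and then in GMP. Macrophage and basophil and mast cell lists are higher in KO in both cell types, the monocyte list is higher in LSK KO and lower in GMP KO, and the neutrophil list overlaps.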

How the data were processed

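RNA from 12 sorted samples (4 groups of 3) was amplified, labelled with biotin and hybridised to Affymetrix arrays. Per the submitters' processing notes, the authors used RMA, and the deposited log2 values are taken as intensities after background correction, quantile normalisation and summary over the probes of a set. No RMA version or genome build is given in the sources used here. No normalisation was added. Of 34760 probe sets, 21640 had a single symbol and gave 19937 genes; of several sets per gene, the set with the highest mean was used. A total of 11799 probe sets had no annotation here. There were 0 columns of other samples. The number of arrays limits the precision.

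The test was limma's moderated one (version 3.58.1, under R 4.3.3). A common fit to the 4 groups had 8 residual degrees of freedom, with 5.16 added by the prior. P-values are two-sided, adjusted over all genes by Benjamini and Hochberg's method and called below 0.05. SD is over 3 arrays and SE is that of the fit. The script was tested on simulated data. The labels name 3 mice per genotype, so the replicates are taken as mice. Deviations of same-numbered arrays correlated at -0.18 to 0.28, not above 0.1 in every pair of any comparison. With 3 pairs per comparison this cannot exclude pairing by mouse. The main fit treated all arrays as independent, and a replicate block was run as an alternative.

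Members, gene lists and tests were chosen with earlier results of these data known. The genes named were the members, Lamtor2, up to 4 genes per list and direction with the smallest p past the threshold, the lowest and highest markers, the 3 genes most like each member, and near-identical relatives. Genes named from the lists were among these except where stated, and other members of a pathway are given as values. Alternatives were quantile normalisation repeated, centring on the median, omission of the dimmest 30% of genes, the mean of a gene's probe sets, array weights, a fit of 2 groups, a replicate block and leaving out each array.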

Additional observations from a re-analysis of the deposited data

Results flagged for a closer look

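Of the 84 measured partner and related genes, 18 had a KO difference that differed between LSK and GMP by limma's test of the interaction (LSK difference minus GMP difference, log2, adjusted over all genes), beside 7.98% of all genes. The difference was larger in GMP KO for Cd33 (-1.87, SE 0.28, adjusted p = 0.00264), Apoe (-1.69, SE 0.35, adjusted p = 0.0120), Lilrb4a (-1.76, SE 0.50, adjusted p = 0.0467) and Cd300lf (-1.61, SE 0.46, adjusted p = 0.0478). It was larger in LSK KO for Havcr2 (1.29, SE 0.24, adjusted p = 0.00710), Fcer1g (0.80, SE 0.18, adjusted p = 0.0192), Fcgr2b (0.73, SE 0.19, adjusted p = 0.0344) and Itgb3 (0.70, SE 0.18, adjusted p = 0.0298). For Trem3 (1.92, SE 0.31, adjusted p = 0.00369) and Cd300lb (1.19, SE 0.20, adjusted p = 0.00476) the KO difference passed as positive in LSK and as negative in GMP. For Trem3 the GMP call ended in 2 of 6 fits that left out 1 array. It also ended with repeated quantile normalisation (limma adjusted p = 0.0553). For Cd300lb the LSK call ended in 4 of 6 such fits and the GMP call in 3 of 6. The GMP call also ended in a fit of the 2 GMP groups (limma adjusted p = 0.0613). Klrb1f (1.83, SE 0.22, adjusted p = 9.20e-04) and Olr1 (1.09, SE 0.26, adjusted p = 0.0207) were lower in GMP KO, and their LSK values of 0.20 and 0.21 did not pass. Trem1 (1.34, SE 0.24, adjusted p = 0.00594) and Siglece (0.92, SE 0.25, adjusted p = 0.0389) had the more positive value in LSK. Cd200 (-1.24, SE 0.29, adjusted p = 0.0219), Syk (-0.66, SE 0.19, adjusted p = 0.0488), Treml1 (-0.61, SE 0.17, adjusted p = 0.0383) and Cd22 (-0.53, SE 0.14, adjusted p = 0.0401) had the more positive value in GMP, and for Cd200 neither value passed on its own.

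The calls of Apoe, Havcr2, Cd33, Cd300lb, Trem1, Trem3, Klrb1f and Olr1 held in each of the 12 fits that left out 1 array, and that of Fcer1g ended only with repeated quantile normalisation (adjusted p = 0.0641). The others ended without several single arrays: Cd300lf in 11 of 12 fits (adjusted p up to 0.126), Treml1 in 11 (up to 0.101), Cd22, Siglece and Syk in 10 each (up to 0.115, 0.105 and 0.117), Lilrb4a in 9 (up to 0.130), Itgb3 in 8 (up to 0.0774), Fcgr2b in 8 (up to 0.0903) and Cd200 in 5 (up to 0.0641). Repeated quantile normalisation also ended the calls of Cd200, Cd22, Fcgr2b, Lilrb4a and Treml1. Centring on the median ended those of Cd22, Lilrb4a, Syk and Treml1, and array weights those of Lilrb4a and Syk. The LSK value of Olr1 turned to -0.0042 without LSK WT replicate 2.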

How the results depend on the processing

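The count of receptor genes past the threshold between WT LSK and WT GMP was 2 in all settings but the fit of these 2 groups alone, where it was 4. Fewer samples set the spread there, and the KO arrays have no part in it. For Cd200r3 the SD was 0.10 in LSK WT and 0.13 in GMP WT, against 0.85 in GMP KO. For Cd200r1 it was 0.22 and 0.27, against 0.74. Leaving out each array gave 2 to 2. Pirb in that contrast turned to -0.01 with repeated quantile normalisation and to -0.06 without LSK WT replicate 2 (range without single arrays -0.06 to 0.27), and Olr1 in LSK, KO minus WT, ranged from -0.0042 to 0.34. Clec12a in GMP, KO minus WT, was -1.21 with repeated quantile normalisation. The KO difference of Cd200r3, LSK minus GMP, was -0.61 to 0.19 without single arrays, a range chosen after seeing the data. Among the differences of the 7 genes between KO and WT, between LSK and GMP, and of the KO difference between cell types, no other sign changed in the settings run. Without single arrays, partner and related genes past the threshold numbered 18 to 25 in LSK and 31 to 38 in GMP, and the receptor genes whose KO and WT arrays did not overlap 5 to 6 and 6 to 7. With a replicate block the counts were 2 for WT LSK against WT GMP, 26 in LSK and 36 in GMP, against 25 and 34 without it. Array weights, the 2-group fit and the block leave array values as they are, so they give no further count of overlap. Cd200r3 was left out by the filter on dim genes. Depth does not apply to arrays, and without detection calls, readings near the lowest of the table have no known signal over background.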
